A study of Aspergillus oryzae with 20 samples.

Results

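Some genes of Aspergillus oryzae, the filamentous fungus used to make koji, lay near zero in most libraries of a strain panel and reached a high level in a few of them. A gene was counted as such when its median over 20 RNA-seq libraries was at most 1 RPKM and its highest value was at least 32 RPKM, with 12 locus tags left out beforehand, 1 of which met both limits. RPKM scales the reads of a gene for the length of its model and for the number of mapped reads of the library. The rule chose 190 of 12074 genes (1.57%), and 9.84% of the 1930 genes with a median of at most 1 RPKM. The values that chose these genes are the values described here, so levels, counts of libraries and runs are descriptions with no test. A test was made only between strains, in a fit over all genes.

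The libraries came from 4 strains of the RIB40 background with 5 libraries each, all grown on solid wheat bran for 72 h at 30 °C. In every strain, controls included, the labels give pyrG as deleted and pyrG and ligD as carried again. The ΔadmA strain lacked admA as well (del-admA), the ΔadmB strain lacked admB (del-admB), and the ΔadmAΔadmB strain lacked both. The deletion control kept both genes, and it is called the control here. The deleted genes are named for ADAM proteins, metalloproteases anchored in membranes. The labels name 1 strain for each genotype and leave unsaid whether its 5 libraries were cultured apart. The p-values therefore rest on the spread among libraries of a strain, and that spread may be technical.

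Genomes of filamentous fungi hold many genes, often in clusters of neighbours, that are hardly transcribed in a given culture and come on with development, stress or secondary metabolism. Spore formation in the genus Aspergillus starts with brlA, a transcription factor gene that is off in growing hyphae and on in the stalk that bears the conidia. On solid bran, hyphae and conidiophores grow side by side, so a bulk library averages over both. In such a library a few cells with a high level and many cells with a low level cannot be told apart.

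In the library totals, summed RPKM lay between 3974009 and 5401733, and between 655 and 1260 genes were listed at 0. The tag of admA was listed at 0 in 4 of 5 ΔadmA libraries (0.0917 RPKM in the other) and in all 5 ΔadmAΔadmB libraries, against 0.208 to 3.42 RPKM in ΔadmB and 0 to 14.2 RPKM in the control. A value of 0 is written as listed at 0, because the files give no read counts. Of the 3233 genes with a median of 100 RPKM or more, 6 were also listed at 0 in at least 1 library. The 190 genes together took between 0.0223% and 0.276% of the summed RPKM of a library.

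Most values of the members lay near zero and some were high, a contrast that the limits on median and highest value build in. Of the 3800 values of the 190 genes in 20 libraries, 35.6% were listed at 0 and 36.2% lay above 0 but under 1 RPKM. A further 12.7% lay from 1 to under 8 RPKM, 5.55% from 8 to under 32 RPKM, and 10% at 32 RPKM or more. The highest value of a member had a median of 88.7 RPKM over the members, with quartiles at 48.4 and 268 RPKM. It was 100 RPKM or more in 86 members and 1000 RPKM or more in 16. Without read counts it was not tested whether a high value in 1 library, or a value listed at 0 beside it, is a failed or misassigned estimate, and this limit holds for each value given here. Over all 1930 genes with such a low median, the highest value had a median of 1.37 RPKM.

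**Figure D1:**
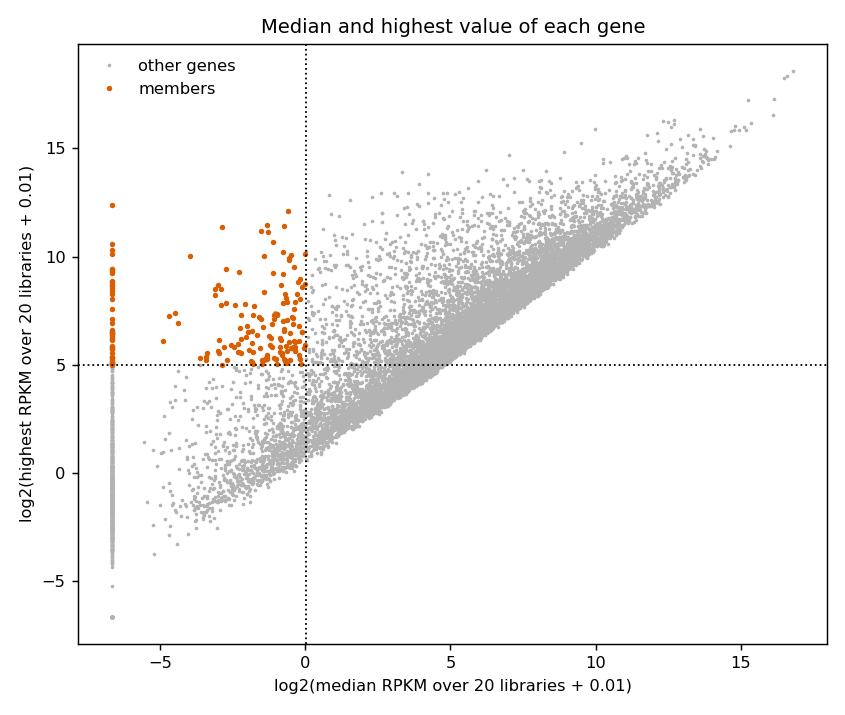
Each point is 1 gene, placed by its median (x axis) and its highest value (y axis) over the 20 libraries, both as log2(RPKM + 0.01), and the dotted lines mark the limits of 1 and 32 RPKM. The 190 members (orange) fill the upper left corner, with highest values of 32.02 to 5364 RPKM.

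How far the highest library stood above the next one varied widely. In 54 members it was at least 10 times the second highest value, and in 88 it was less than 2 times that value. Taking 8 RPKM as switched on, 53 members were on in exactly 1 library, 32 in 2, 36 in 3 and 29 in 4, and the remaining members in 5 to 9. Across strains, 68 members were on in 1 strain only, 44 in 2, 41 in 3 and 37 in all 4. The gene models of the members had a median length of 1175 bp in the reference table, against 1306 bp for all genes. The other genes of the same low median that stayed under 32 RPKM had a median length of 1002.5 bp.

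No sharp gap set the members apart from the rest. Just inside the limit on the highest value lay AO090012000460 at 32.02 RPKM, AO090701000351 at 32.1 RPKM and AO090701000512 at 32.3 RPKM. Just outside it lay AO090001000322 at 31.4 RPKM, AO090012000092 at 31.0 RPKM and AO090038000104 at 29.8 RPKM. For the limit on the median, the nearest inside were AO090138000069 (0.990 RPKM), AO090001000691 (0.982 RPKM) and AO090023000441 (0.980 RPKM). The nearest outside were AO090010000088 (1.004 RPKM), AO090166000015 (1.01 RPKM) and AO090011000337 (1.05 RPKM), and the first of these reached 1209 RPKM in ΔadmA replicate 1.

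High single values of the same relative size were about as frequent among genes with a somewhat higher median. A highest value of at least 32 times the median, with medians under 1 RPKM set to 1, was found in 191 of 1930 genes with a median of at most 1 RPKM (9.90%). It was found in 223 of 2214 genes with a median between 1 and 10 RPKM (10.1%). The share was 3.64% between 10 and 100 RPKM, 0.811% between 100 and 1000 RPKM and 0.155% above 1000 RPKM.

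Every library carried switched-on members, and the number in a library ranged from 9 to 64. In ΔadmA, 64, 28, 34, 29 and 30 members were on in replicates 1 to 5, and in ΔadmB 53, 21, 26, 18 and 26. In ΔadmAΔadmB the counts were 30, 16, 46, 9 and 17, and in the control 59, 19, 24, 25 and 17. The median count was 30 in ΔadmA, 26 in ΔadmB, 17 in ΔadmAΔadmB and 24 in the control. The ranges of all 4 strains overlapped, and 1 library stood well above the rest in each strain, replicate 3 in ΔadmAΔadmB and replicate 1 in the other strains.

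**Figure D2:**
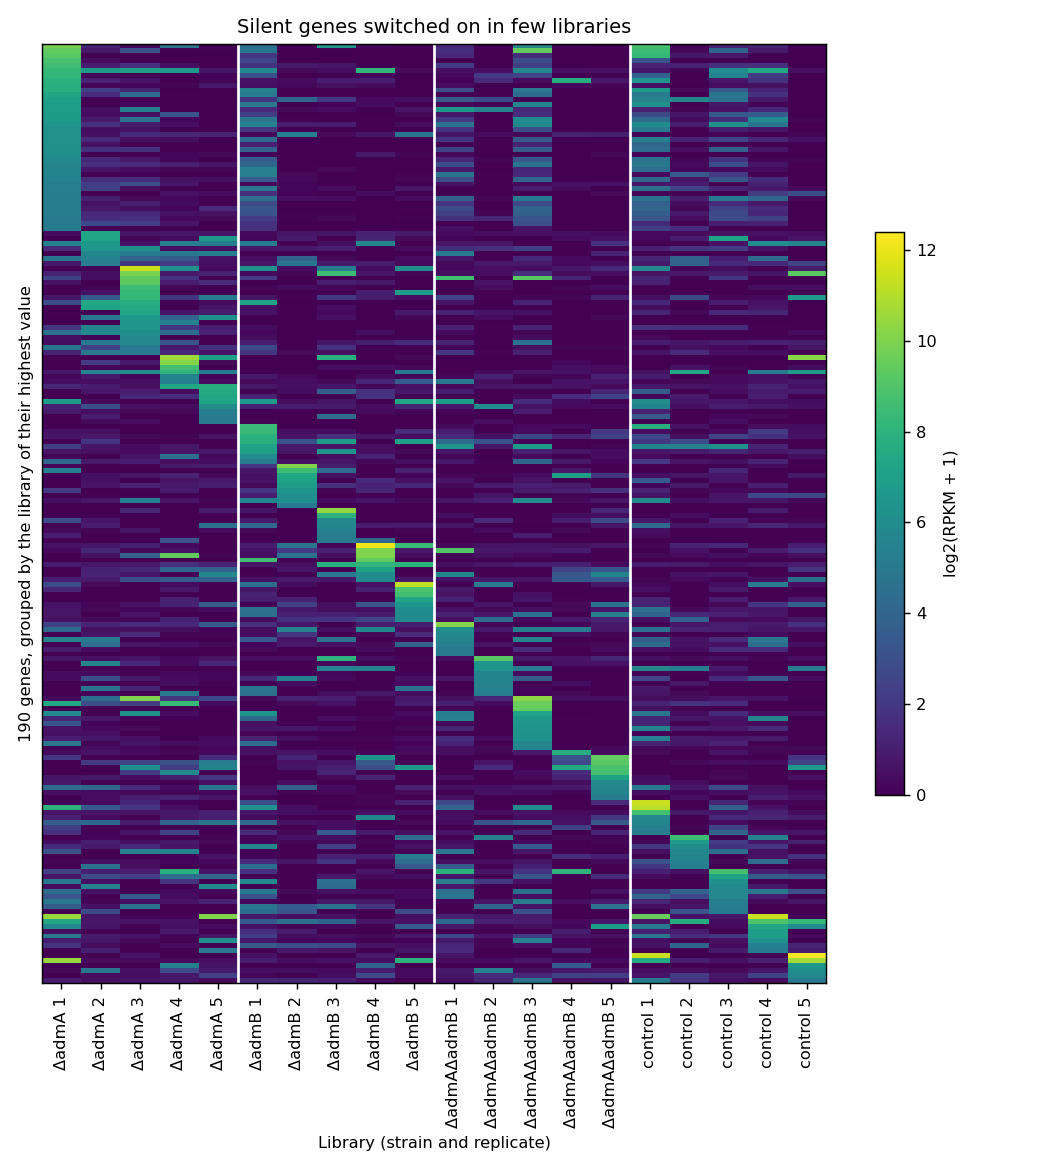
Each line is 1 of the 190 members and each column 1 library, coloured by log2(RPKM + 1), with members grouped by the library of their highest value and strains divided by white lines. The blocks on the diagonal are the highest values by construction; off it, many of the 38 members that peak in ΔadmA replicate 1 are also bright in ΔadmB replicate 1, ΔadmAΔadmB replicate 3 and control replicate 1.

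The level of brlA was set beside these counts. It was 90.2, 3.95, 3.14, 2.02 and 2.86 RPKM in ΔadmA replicates 1 to 5, and 29.7, 1.36, 1.08, 0.476 and 0.931 RPKM in ΔadmB. It was 10.4, 1.62, 34.6, 1.17 and 2.33 RPKM in ΔadmAΔadmB, and 46.7, 3.69, 14.5, 3.19 and 1.60 RPKM in the control. The library with the most switched-on members was the one with the highest brlA in each of the 4 strains. Among the remaining libraries the order of brlA and that of the counts differed in ΔadmA, ΔadmB and the control, and were the same in ΔadmAΔadmB. Control replicate 3, for example, had 24 members on and control replicate 4 had 25. Genes listed at 0 numbered 809 in ΔadmA replicate 1, 769 in ΔadmB replicate 1, 797 in ΔadmAΔadmB replicate 3 and 655 in control replicate 1. These were the fewest of the strain in ΔadmB, ΔadmAΔadmB and the control, and the second fewest in ΔadmA, where replicate 2 had 729. The part of brlA, and of the number of genes listed at 0, in the counts was not tested.

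**Figure D3:**
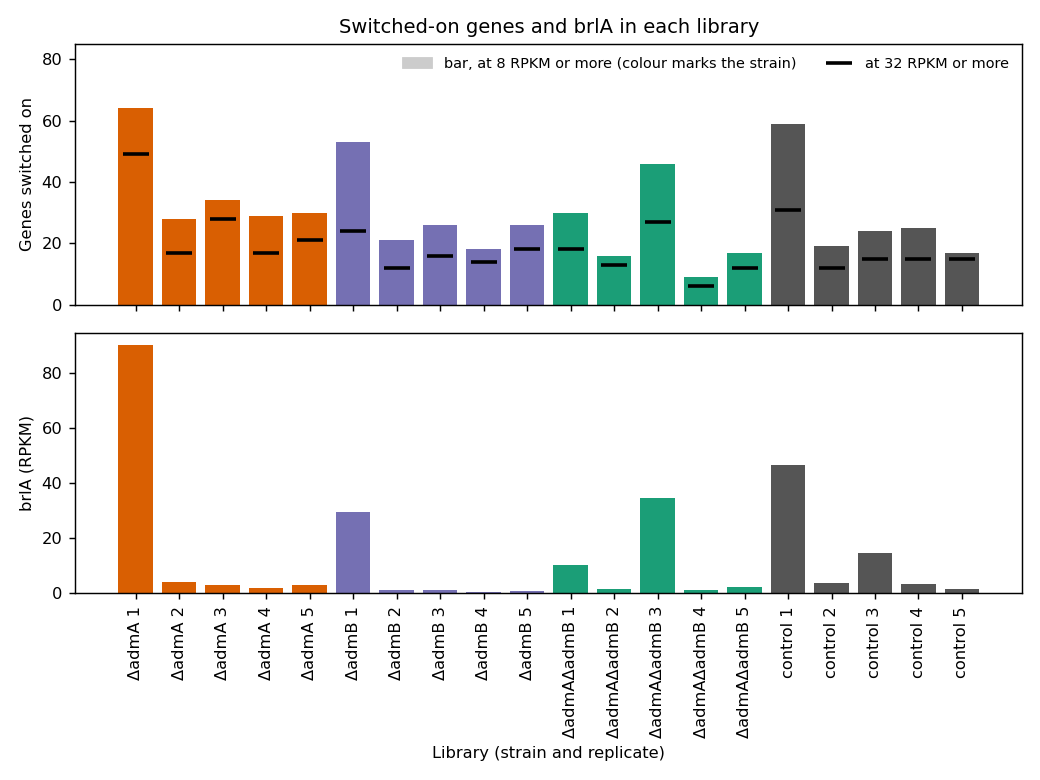
Bars in the upper panel give the number of members at 8 RPKM or more in each of the 20 libraries and black ticks the number at 32 RPKM or more; bars in the lower panel give brlA in RPKM. The highest bars of both panels fall in ΔadmA replicate 1 (64 members, 90.2 RPKM), ΔadmB replicate 1 (53, 29.7), ΔadmAΔadmB replicate 3 (46, 34.6) and control replicate 1 (59, 46.7).

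These 4 libraries of different strains also switched on many of the same members. Of the 190 pairs of libraries, the 6 pairs among them ranked first, with 28 to 37 members on in both. They are also the 4 libraries with the most members on, which by itself makes shared counts larger. ΔadmA replicate 1 and control replicate 1 shared the most, 37 members, which was 57.8% of those on in ΔadmA replicate 1 and 62.7% of those on in control replicate 1. The other 184 pairs shared 0 to 16 members, with a median of 4. As a share of the smaller library, ΔadmA replicate 1 and control replicate 3 overlapped more, with 16 members that were 25% of those on in ΔadmA replicate 1 and 66.7% of the 24 on in control replicate 3. In all, 110 members were on in at least 1 of the 4 libraries, 31 in at least 3 and 19 in every one, and 80 members were on in none of them.

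Of the 19 members on in all 4 libraries, 7 were on in no other library. AO090138000159 was at 120, 30.1, 46.7 and 73.7 RPKM in ΔadmA replicate 1, ΔadmB replicate 1, ΔadmAΔadmB replicate 3 and control replicate 1. It was at most 0.697 RPKM in each of the other 16 libraries. AO090011000225 was at 214, 45.6, 29.9 and 104 RPKM in the same 4 libraries and at 9.49 RPKM in control replicate 3. In each of these genes ΔadmA replicate 1 was highest and control replicate 1 second, which was also the order of brlA.

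ΔadmA replicate 1 held the highest value of 38 members, more than any other library. The next were ΔadmA replicate 3 with 18 and ΔadmAΔadmB replicate 3 with 11, and the remaining 17 libraries held 1 to 9 each. Of the 38, 25 were on in control replicate 1, 19 in ΔadmB replicate 1, 17 in ΔadmAΔadmB replicate 3 and 10 in control replicate 3. Of the other ΔadmA libraries, replicate 3 had 4 of the 38 on, replicate 4 had 2, replicate 2 had 1 and replicate 5 had 0. With ΔadmA replicate 1 left out, 21 members no longer met the rule, against 5 to 14 when any other library was left out. The 18 members that peaked in ΔadmA replicate 3 had other company, with 8 on in ΔadmA replicate 2, 5 in ΔadmA replicate 4 and at most 2 in any other library.

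Summed over strains, the highest value of a member fell in ΔadmA for 77 members, in ΔadmB for 40, in ΔadmAΔadmB for 36 and in the control for 37. ΔadmA replicate 1 alone held 38 of the 77. In ΔadmA 124 members were on in at least 1 library, in ΔadmB 108, in ΔadmAΔadmB 95 and in the control 100. Members on in 1 strain only numbered 28 in ΔadmA, 20 in ΔadmB, 13 in ΔadmAΔadmB and 7 in the control. Most of these were on in a single library. On in at least 2 libraries of 1 strain and in no other strain were 9 members in ΔadmA, 5 in ΔadmB, 0 in ΔadmAΔadmB and 1 in the control. On in 4 of the 5 libraries of a strain were 8 members in ΔadmA and 0 in each other strain, and no member was on in all 5. These counts come from the values that chose the members, and their shares over all genes are not given. No strain difference can be read from them.

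Members seldom formed long runs of neighbours. A run was taken as at least 3 members in reference gene order with at most 1 other gene between neighbours, all highest in the same library, and 1 run was found. It reached from AO090026000582 to AO090026000577, with 5 members over 6 genes, and all 5 peaked in ΔadmA replicate 1 at 35.9 to 690 RPKM. The reference table gives none of these genes a symbol. When up to 2 genes were allowed between members the run went on to AO090026000586, and when none was allowed it shrank to the 3 members AO090026000579 to AO090026000577.

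The most abundant gene of the run, AO090026000581, was at 690, 0.750, 7.02, 0.0915 and 0.0812 RPKM in ΔadmA replicates 1 to 5, and at 28.4, 0, 0.0668, 0 and 0 RPKM in ΔadmB. It was at 2.12, 0, 689, 0 and 0 RPKM in ΔadmAΔadmB, and at 356, 0.189, 15.0, 0.821 and 0 RPKM in the control. One library in each strain was high, and the ranges of the 4 strains overlapped. AO090026000582, next to it, reached 49.1 RPKM in ΔadmA replicate 1, 16.3 in ΔadmB replicate 1, 23.3 in ΔadmAΔadmB replicate 3 and 29.7 in control replicate 1. The 3 members on its other side, AO090026000579, AO090026000578 and AO090026000577, reached 35.9, 43.8 and 36.2 RPKM in ΔadmA replicate 1. In control replicate 1 they were at 11.6, 16.3 and 16.002 RPKM. Levels of AO090026000579 and AO090026000578 followed each other most closely of all adjacent members (Pearson's r of log2 values 0.997 over the 20 libraries, which share depth and library).

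The genes between and beside these members were high in the same libraries without meeting the rule. AO090026000580, inside the run, was at 38.0 RPKM in ΔadmA replicate 1, and missed the rule by its median. AO090026000576 was at 98.7 RPKM and AO090026000575 at 388 RPKM there, against 37.2 and 195 RPKM in control replicate 1. AO090026000584 was at 28.1 RPKM and AO090026000585 at 7.53 RPKM in ΔadmA replicate 1. The stretch was bounded on one side by AO090026000574, which stayed at or under 0.552 RPKM in all 20 libraries. On the other side AO090026000587 was low but had its highest value, 5.25 RPKM, in ΔadmA replicate 1 too, against a median of 1.07 RPKM.

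**Figure D4:**
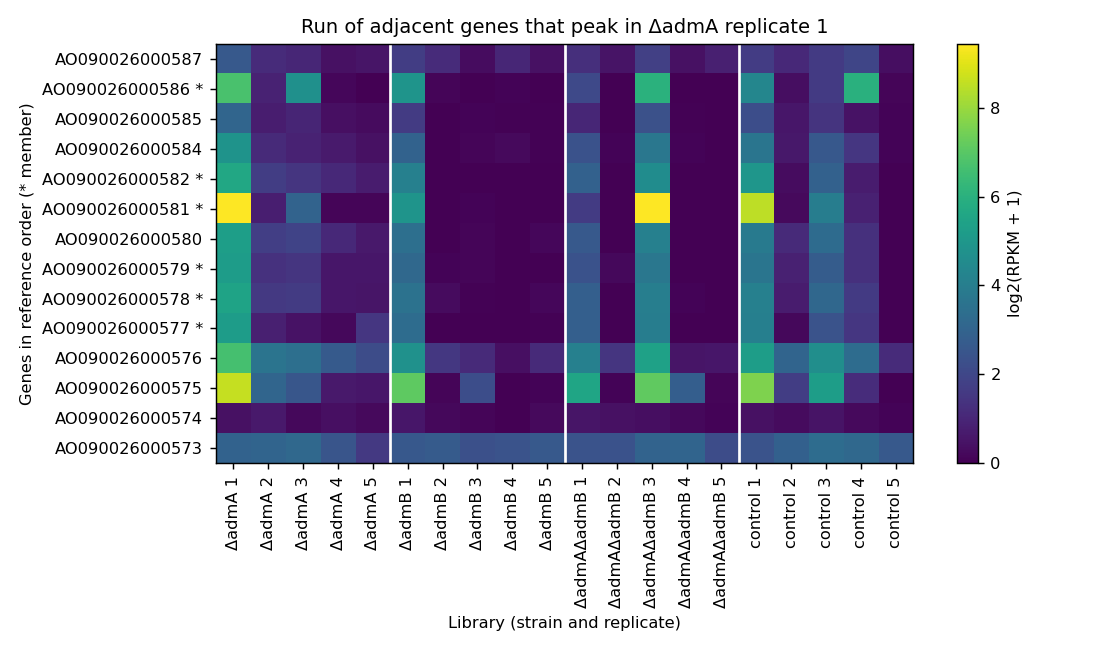
Lines are genes in reference order around the run, with members starred, and columns are the 20 libraries, coloured by log2(RPKM + 1), with strains divided by white lines. Genes from AO090026000586 to AO090026000575 are mostly bright in ΔadmA replicate 1, ΔadmB replicate 1, ΔadmAΔadmB replicate 3 and control replicate 1, and AO090026000574 stays at or under 0.552 RPKM.

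Pairs of neighbouring members were more frequent than runs. Of the 190 members, 19 (10%) had another member as the next gene in reference order, against 353 of the 11884 other genes (2.97%). They formed 10 adjacent pairs, of which 5 had the same highest library. AO090701000298 reached 449 RPKM and its neighbour AO090701000299 reached 81.5 RPKM, both in ΔadmA replicate 1, and in control replicate 1 they were at 7.68 and 32.8 RPKM. AO090011000353 was on in ΔadmA replicates 2 and 5 and control replicate 3 (159, 102 and 144 RPKM). Its neighbour AO090011000354 was on in the same 3 libraries (41.1, 57.3 and 58.0 RPKM) and in ΔadmB replicate 3. Other pairs did not move together. AO090001000157 peaked at 2349 RPKM in ΔadmB replicate 5 and its neighbour AO090001000158 at 221 RPKM in ΔadmA replicate 1, and no library had both on.

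Adjacent genes that were no members were also raised, with ΔadmA replicate 1 contributing 30 of the 74 cases. Such flanking genes were counted once for each member they flank, here and in the shares below, which gave 360. Of these, 20.6% lay at least 1 log2 unit above their own median in the library where the member peaked. The scale was log2(RPKM + 1). Over all genes and libraries that share was 8.56%. At 3 log2 units or more the shares were 6.94% and 1.57%. Around members that peaked in ΔadmA replicate 1, 45.5% of 66 flanking genes were raised by at least 1 log2 unit, against 11.1% of all genes in that library. In the other 19 libraries together the share was 15.0% of 294 flanking genes, against 8.42% of all genes. It was above the share of all genes in 14 of the 20 libraries and below it in the rest, for example 1 of 21 (4.76%) in ΔadmAΔadmB replicate 3 against 10.2%, and 1 of 14 (7.14%) in control replicate 1 against 9.99%. With neighbours that were members counted too, 69 of the 190 members had at least 1 neighbour raised by at least 1 log2 unit. No member overlapped a neighbouring gene model in the reference table, and the sources used here do not give whether the authors' counting used strand.

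Some neighbours were far more abundant than the member itself. AO090701000860 was at 37.3 RPKM in ΔadmA replicate 1, where the next gene, AO090701000861, was at 7699 RPKM against its own median of 35.6 RPKM. AO090701000866 was at 91.4 RPKM in that library, and the genes on its sides, AO090701000865 and AO090701000867, were at 2948 and 524 RPKM against medians of 27.2 and 10.9 RPKM. Both members were on in the same 7 libraries. For AO090701000866 these were ΔadmA replicate 1 (91.4 RPKM), ΔadmB replicate 1 (46.4), ΔadmAΔadmB replicates 1 and 3 (25.3 and 57.5) and control replicates 1, 3 and 4 (61.2, 78.3 and 27.3). These control and double deletion libraries were also the ones with the higher brlA levels, except control replicate 4, where brlA was at 3.19 RPKM. These neighbours were picked after their values were seen.

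ΔadmA against the control shows which of these genes differed when admA alone was missing. The comparison was read from a limma fit over the 10652 genes that reached 1 RPKM in 5 or more libraries, on log2(RPKM + 1), with Benjamini-Hochberg adjustment over all of them. The rule for members used the same values without the strain labels. Of the 190 members 118 passed that filter and 72 did not. In this contrast 2 of the 118 were called, both higher in ΔadmA, where 1.08% of all tested genes were called (0.488% higher and 0.591% lower). At an unadjusted p under 0.05 there were 10 of 118 members (8.47%), against 10.3% of all tested genes. The median log2 difference was 0.10 over the members and 0.00 over all genes.

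AO090001000045 was at 23.3, 57.7, 70.6, 20.6 and 1.27 RPKM in ΔadmA replicates 1 to 5, and at 0.208, 0, 0, 0.369 and 0 RPKM in ΔadmB. It was at 0.276, 0, 0.176, 0 and 0 RPKM in ΔadmAΔadmB, and at 0.0563, 0, 0, 0 and 0.292 RPKM in the control. Each ΔadmA library lay above each library of the other 3 strains. On the log2(RPKM + 1) scale, where changes of low genes come out too small, it was 4.36 higher in ΔadmA than in the control (SE 0.61, limma adjusted p = 0.0046). It reached 1 RPKM in no library outside ΔadmA and so passed the filter through that strain alone. The values tested are also those that made the gene a member, so the call is no independent support for the difference. The call was lost in 2 of the 25 alternatives that could test the gene. With any 1 ΔadmA library left out, the gene failed the filter and had no test. In only the 10 libraries compared the log2 difference was 4.36 with an adjusted p of 0.116, and within set 1, 12 libraries whose low values move in the same steps, it was 3.18 with 0.870. Within set 2, the other 8 libraries, it was 6.02 with 0.00366.

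AO090138000123 was listed at 0 in ΔadmA replicate 1 and was at 52.4, 34.9, 30.5 and 40.1 RPKM in ΔadmA replicates 2 to 5. It was listed at 0 in all 5 ΔadmB libraries and in all 5 control libraries, and was at 35.0, 0, 0, 0 and 1.31 RPKM in ΔadmAΔadmB. The ΔadmA values overlapped those of the control only through the library listed at 0. The difference from the control passed the threshold (limma adjusted p = 0.044), and no fold is given against a group listed at 0. The gene reached 1 RPKM only in ΔadmA and ΔadmAΔadmB libraries and passed the filter through them. The values tested are also those that made it a member, so the call is no independent support for the difference. The call was lost in 22 of 30 alternative analyses, which ranged from an adjusted p of 0.000536 without ΔadmA replicate 1 to 1 within set 1. In reference order 8 genes lie between this gene and admA, on the same sequence.

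The 8 members on in 4 of 5 ΔadmA libraries included both of these genes. AO090701000547 was on in ΔadmA replicates 2 to 5 at 27.7, 95.7, 15.3 and 82.1 RPKM and listed at 0 in replicate 1. It was at most 0.407 RPKM in ΔadmB, at most 0.344 RPKM in ΔadmAΔadmB and listed at 0 in all 5 controls. With only 4 libraries at 1 RPKM or more it was not tested. The other 5 were AO090001000025, AO090005001371, AO090011000153, AO090023000672 and AO090026000075, and each was also on in the control. AO090023000672, for example, was at 306, 109, 123, 114 and 0.616 RPKM in ΔadmA and at 0.609, 0.181, 65.7, 182 and 0.426 RPKM in the control, and its ranges overlapped.

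**Figure D5:**
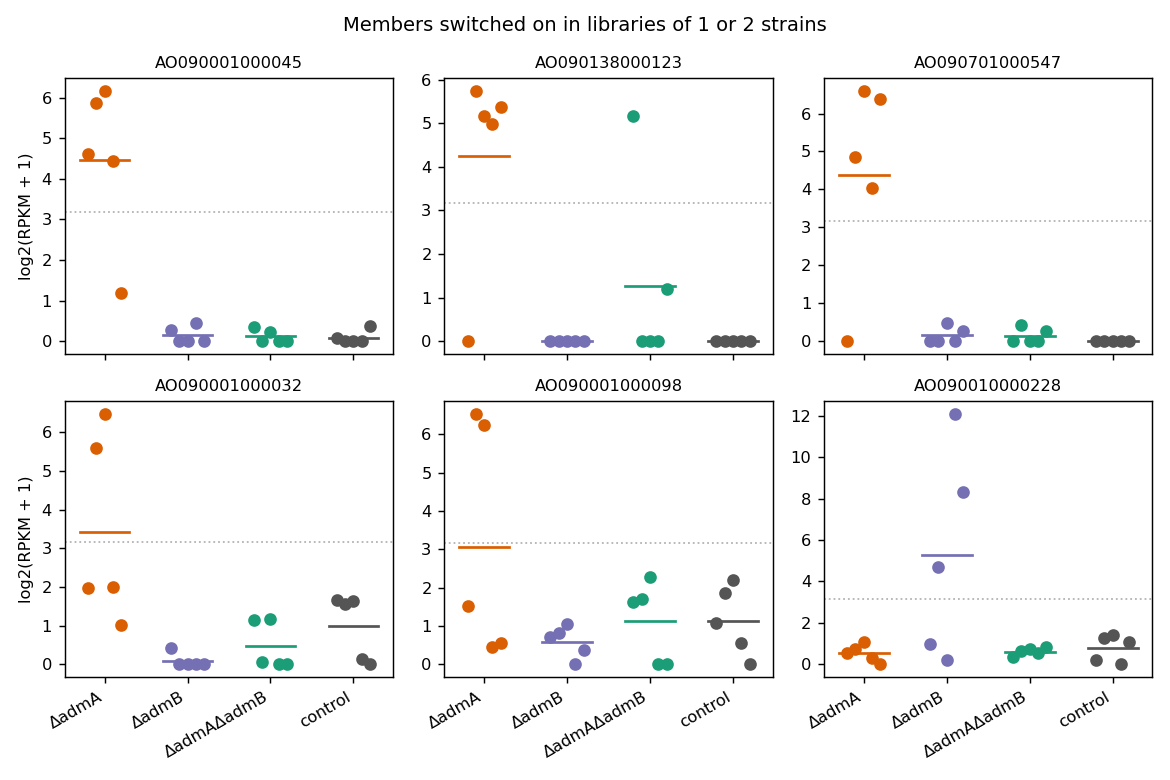
Points are the 5 libraries of each strain and short lines the strain means of log2(RPKM + 1) for 6 members, with a dotted line at 8 RPKM. AO090001000045 is above 1 RPKM in all 5 ΔadmA libraries and in no other library. AO090010000228 is on in 3 ΔadmB libraries, at 24.9, 4365 and 324 RPKM in replicates 2, 4 and 5, and in no other library.

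ΔadmB against the control, the comparison for loss of admB alone, called 0 of the 118 members by the same limma test, as it called 0% of all tested genes. At an unadjusted p under 0.05 there were 6 members (5.08%), against 8.11% of all tested genes. ΔadmAΔadmB against the control, for loss of both genes, also called 0 of the 118 members and 0% of all tested genes, with 3 members (2.54%) and 4.87% of all genes at an unadjusted p under 0.05. The median log2 difference of the members was -0.44 in ΔadmB and -0.30 in ΔadmAΔadmB, against 0.00 and -0.01 over all genes. Both comparisons share the control libraries with that of ΔadmA, and control replicate 1 with its 59 switched-on members is among them.

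ΔadmAΔadmB against ΔadmA, which asks what loss of admB adds where admA is already gone, called 1 of 118 members, AO090001000045, where 1.77% of all tested genes were called (0.836% higher and 0.939% lower). It was lower in ΔadmAΔadmB than in ΔadmA, with a log2 difference of -4.33 (SE 0.61, limma adjusted p = 0.0019). Here too the gene was in the fit through its ΔadmA libraries alone. The call was lost in 2 of the 25 alternatives that could test the gene, which again had no test with any 1 ΔadmA library left out. In only the 10 libraries compared the log2 difference was -4.33 with an adjusted p of 0.0984, within set 1 it was -3.29 with 0.323, and within set 2 it was -5.90 with 0.00677. At an unadjusted p under 0.05 there were 11 members (9.32%), against 10.7% of all tested genes. ΔadmAΔadmB against ΔadmB, for loss of admA where admB is gone, called 0 of 118 members and 0% of all tested genes. There 5 members (4.24%) and 5.75% of all genes had an unadjusted p under 0.05.

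Members on in several libraries of a single strain numbered 15, of which 8 passed the filter of the limma fit and 1, AO090001000045, was called. AO090009000172 was at 145 and 193 RPKM in ΔadmA replicates 2 and 3 and at most 0.701 RPKM in each of the other 18 libraries. AO090005000018 was at 174 and 228 RPKM in ΔadmA replicates 4 and 5 and at most 1.51 RPKM elsewhere. AO090023000582 was at 88.6 and 41.9 RPKM in ΔadmA replicates 3 and 4 and listed at 0 in the other 18 libraries. In each of these cases the remaining 3 ΔadmA libraries were at most 1.51 RPKM, and the ranges of ΔadmA and the control overlapped. These 3 genes did not pass the filter and were not tested.

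In ΔadmB 2 such members were on in 3 libraries, AO090010000228 and AO090005000994. AO090005000994 was at 230, 263 and 237 RPKM in replicates 3 to 5 and at 0.626 and 0.416 RPKM in replicates 1 and 2. It was at most 2.18 RPKM in each of the 15 libraries of the other strains. Its log2 difference from the control was 4.18 (SE 1.22) and did not pass the threshold (limma adjusted p = 0.595). AO090023000249 was at 390 and 692 RPKM in ΔadmB replicates 1 and 4 and listed at 0 in the other 18 libraries. AO090005000922 was at 134 and 83.6 RPKM in ΔadmB replicates 1 and 3 and at most 1.55 RPKM elsewhere. The ΔadmB ranges of all 3 genes overlapped those of the control.

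The only such member of the control was AO090011000200, which also had the highest value of all members. It was at 5364 RPKM in control replicate 5 and 2710 RPKM in control replicate 1, listed at 0 in the other 3 controls, and at most 0.884 RPKM in the 15 deletion libraries. The next gene, AO090011000201, was abundant throughout, at 672 RPKM in control replicate 5 against a median of 467 RPKM.

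The other 9 of the 10 members with the highest values showed no common pattern. AO090010000228 was at 24.9, 4365 and 324 RPKM in ΔadmB replicates 2, 4 and 5 and at most 1.70 RPKM elsewhere. AO090113000140 was at 2833 RPKM in ΔadmA replicate 3, at 73.3 RPKM in ΔadmA replicate 4, at 34.5 to 73.6 RPKM in 3 ΔadmB libraries and at 52.4 RPKM in control replicate 1. AO090010000698 was at 1550 and 137 RPKM in ΔadmA replicates 4 and 5, at 231 RPKM in ΔadmB replicate 3 and at 1146 RPKM in control replicate 5, and it was listed at 0 in 15 libraries. The same gene thus came on in libraries of several strains at levels far apart.

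AO090010000323 was at 1421 and 1065 RPKM in ΔadmA replicates 1 and 5 and at 728 and 2691 RPKM in control replicates 1 and 4. AO090010000024 was at 1428 RPKM in ΔadmA replicate 1, at 253 RPKM in ΔadmB replicate 5 and at 188 and 1647 RPKM in control replicates 1 and 5. AO090001000323 was at 259, 75.3, 59.7 and 2263 RPKM in ΔadmA replicate 1, ΔadmB replicate 1, ΔadmAΔadmB replicate 3 and control replicate 1. This last gene was one of the 19 on in all 4 libraries of high brlA. AO090001000157 was at 2349 RPKM in ΔadmB replicate 5, while its next highest value was 35.1 RPKM in control replicate 4.

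The remaining members among these 10 were on in 1 library only. AO090023000266 was at 2652 RPKM in control replicate 1 and at most 6.58 RPKM in each of the other 19 libraries. AO090026000633 was at 1277 RPKM in ΔadmB replicate 3 and at most 1.71 RPKM elsewhere. Their neighbours did not follow. Both genes flanking AO090023000266 were listed at 0 in control replicate 1, and those flanking AO090026000633 were at 4.69 and 177 RPKM in ΔadmB replicate 3, against medians of 7.64 and 170 RPKM. The 53 members on in 1 library only were spread over 18 of the 20 libraries, with 8 in ΔadmA replicate 1, 5 each in ΔadmB replicates 2 and 3, and 0 in ΔadmB replicate 4 and control replicate 3.

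The encoded functions are known for few of the members. Only 3 of the 190 (1.58%) have a symbol of their own in the reference table, against 714 of all 12074 genes (5.91%), and the table gives no product names. AfusinC (AO090001000098) bears the name of a defensin-like antimicrobial peptide, a small secreted protein, described in Aspergillus fumigatus. It was at 1.89, 91.6, 74.7, 0.365 and 0.479 RPKM in ΔadmA replicates 1 to 5, and at 0.629, 0.754, 1.07, 0 and 0.291 RPKM in ΔadmB. It was at 2.09, 2.24, 3.85, 0 and 0 RPKM in ΔadmAΔadmB, and at 1.12, 2.64, 3.58, 0.470 and 0 RPKM in the control. ΔadmA replicates 2 and 3 stood far above the other 18 libraries, and the other ΔadmA values lay within the range of the control.

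The member named sec53 (AO090003000030) bears the symbol of the phosphomannomutase gene of budding yeast, which makes the mannose donor for protein glycosylation. It was on in 3 libraries, at 47.7 RPKM in ΔadmA replicate 1, 43.0 RPKM in ΔadmB replicate 1 and 20.6 RPKM in control replicate 1, and at most 1.40 RPKM in the other 17. Its ranges in ΔadmA, ΔadmB and the control overlapped. The third, glcA (AO090701000351), was on in ΔadmAΔadmB replicate 5 alone, at 32.1 RPKM, and at most 1.24 RPKM elsewhere.

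Members also lay among named genes of secondary metabolism. In A. fumigatus the gli genes form the cluster that makes gliotoxin, with gliP encoding the nonribosomal peptide synthetase that joins its amino acids, gliC a cytochrome P450, gliG a glutathione S-transferase, gliI an enzyme that frees the sulphur atoms, gliJ a dipeptidase and gliM a methyltransferase. Genes with these symbols stand in 1 stretch of 20 genes in the A. oryzae reference, together with gliK and the members AO090001000025, AO090001000032 and AO090001000045. None of the 7 gli genes was a member.

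AO090001000032 was at 2.91, 47.3, 87.7, 3.00 and 1.02 RPKM in ΔadmA replicates 1 to 5, at most 0.342 RPKM in ΔadmB, at most 1.27 RPKM in ΔadmAΔadmB and at most 2.16 RPKM in the control. Its neighbour gliI was at 1.23, 11.7, 18.5, 1.70 and 1.05 RPKM in ΔadmA, at most 0.343 RPKM in ΔadmB, at most 0.379 RPKM in ΔadmAΔadmB and at most 3.77 RPKM in the control. Both were highest in ΔadmA replicates 3 and 2, and neither had ΔadmA values apart from those of the control. The gene gliP was also highest in these 2 libraries, at 1.12 RPKM in ΔadmA replicate 2 and 0.676 RPKM in replicate 3, and at most 0.179 RPKM in each of the other 18.

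Other genes of the stretch had other patterns. AO090001000025 was on in ΔadmA replicates 2 to 5 (43.3, 66.8, 270 and 36.2 RPKM), in ΔadmB replicate 5 (32.7 RPKM) and in control replicates 2, 4 and 5 (165, 33.7 and 110 RPKM). The gene gliC reached 17.5 RPKM in ΔadmA replicate 2 and 12.8 RPKM in replicate 5. The gene gliM was steady, at 7.11 to 14.4 RPKM in all 20 libraries, and gliG, with a median of 8.57 RPKM, reached 592 RPKM in ΔadmA replicate 4. AO090001000045, 2 places from gliP, had its highest values in ΔadmA replicates 2 and 3 (57.7 and 70.6 RPKM), as had AO090001000032, gliI and gliP. The genes of the stretch as a whole did not share 1 pattern.

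Lists of named genes held no members. Members were 1.57% of all genes, so lists this short cannot show a lack of them. Of 11 regulators of development and secondary metabolism with a symbol in the table (veA, vosA, brlA, wetA, flbA, flbB, flbD, fluG, hdaA, rpdA and pacC), 0 were members and 0 had a median of at most 1 RPKM. Of 18 genes with symbols of secondary metabolism, 4 had such a median (gliI, gliC, gliP and sidI) and 0 reached 32 RPKM with it. In the limma fit 1 of the 16 tested secondary metabolism genes was called higher in ΔadmA than in the control and 0 lower (median log2 difference 0.03), and in ΔadmAΔadmB against ΔadmA 0 were called higher and 1 lower (median -0.52). Of the 11 regulators 1 was called higher and 0 lower in ΔadmAΔadmB against ΔadmA (median -0.20). Of all tested genes 1.08% were called in ΔadmA against the control and 1.77% in ΔadmAΔadmB against ΔadmA. Both lists had 0 calls in either direction in the other comparisons. The called genes were gliK, 1.04 log2 units higher in ΔadmA than in the control (limma adjusted p = 0.0366), and fmaF, a gene named after the fumagillin cluster, with a log2 difference of -2.41 between ΔadmAΔadmB and ΔadmA (limma adjusted p = 0.0468). The regulator was hdaA, a histone deacetylase gene, 1.37 log2 units higher in ΔadmAΔadmB than in ΔadmA (limma adjusted p = 0.0193). The number of calls over all genes depended on the fit. In only the 10 libraries compared, 2 genes were called in ΔadmA against the control, where the main fit called 115. In ΔadmAΔadmB against ΔadmA 1 gene was called there, where the main fit called 189, so fmaF and hdaA were not both called. In reference order gliK lies 2 places from the member AO090001000032 and fmaF 2 places from the member AO090010000024.

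The conidial pigment gene ayg1 lies beside the member AO090005000333. That member was at 239 RPKM in ΔadmB replicate 1 and at most 5.49 RPKM elsewhere, whereas ayg1 was at 1.39 RPKM in ΔadmB replicate 1 against its own median of 2.01 RPKM. In other libraries ayg1 was high. It reached 1745 RPKM in ΔadmA replicate 1, 162 in ΔadmB replicate 4, 1528 in ΔadmAΔadmB replicate 2 and 738 in control replicate 5. The pair did not move together (Pearson's r of log2 values -0.23 over 20 libraries).

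The genes outside the rule whose levels followed the mean of the members most closely were AO090020000207, AO090020000543 and AO090026000585, with Pearson's r of log2(RPKM + 1) of 0.952, 0.926 and 0.919 over the 20 libraries. This is a description, since all points share the library. AO090020000207 was at 436 RPKM in ΔadmA replicate 1, 101 RPKM in ΔadmB replicate 1, 108 RPKM in ΔadmAΔadmB replicate 3 and 226 RPKM in control replicate 1, and between 12.4 and 59.0 RPKM in the other 16 libraries. AO090026000585 lies in the stretch around the run.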

How the data were processed

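Messenger RNA of 4 A. oryzae strains was sequenced in 5 libraries each. Per the file headers, the deposited values are RPKM made by the authors, 1 table of 12074 genes per library; the depth in reads is unknown, so no interval for counting error is given. The tools named in the submitters' processing notes are TopHat2 2.0.9, Cufflinks 2.1.1, CASAVA 1.8.2 and FastQC 0.10.1. What each was used for, the genome build and the gene annotation are not stated there. Every one of the 12074 identifiers was found in the RefSeq gene table of assembly ASM18445v3, which served only for symbols, gene length and gene order.

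Members were chosen from the RPKM as deposited, and a library was called switched on at 8 RPKM. Members and lists were chosen with earlier results of these data known. Named are the 10 members with the highest values, runs, members with a symbol, members called by limma, members on in 4 or 5 libraries of a strain, genes next to the limits, and the 3 genes most like the members; other examples were chosen after their values were seen. Strains were compared with limma 3.58.1 in R 4.3.3 (1 mean per strain over 20 libraries, trended eBayes without a block, two-sided, Benjamini-Hochberg threshold 0.05) on log2(RPKM + 1) for genes reaching 1 RPKM in 5 or more libraries. Descriptions were computed in Python 3.11.15 with numpy 2.4.6 and pandas 2.3.3. The fit was also run on simulated data with normal noise and shifts planted in genes of higher mean level. Members have low medians and high values in few libraries, so that run does not bear on them.

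Values of low genes move in steps that divide the libraries into set 1 (12 libraries: 3 ΔadmA, 4 ΔadmB, 3 ΔadmAΔadmB and 2 control) and set 2 (8 libraries: 2, 1, 2 and 3), of unstated origin. Members on per library numbered 9 to 64 (median 27.5) in set 1 and 16 to 46 (median 24.5) in set 2. Alternatives changed the limits, pseudocount, filter, scaling, block, covariate, libraries sharing the spread, and left out each library; fits within each set were chosen after seeing the data. Protein motif classes and promoter motifs, which were planned, were not analysed here, because no sequences were used.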

Additional observations from a re-analysis of the deposited data

Results flagged for a closer look

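Within each strain, the highest or lowest library was set against the gap to its nearest neighbour over 28 groups of 5 values, and 10 stood apart. The nominal rate of such marks is about 1 in 20 groups of unselected, normally distributed values. That rate was not measured here and need not hold for RPKM or counts. The members were also chosen on these values, so all marks, those on brlA included, are descriptions. The number of members switched on at 8 RPKM was 64 in ΔadmA replicate 1 against 28 to 34 in the other ΔadmA libraries, 53 in ΔadmB replicate 1 against 18 to 26, and 59 in control replicate 1 against 17 to 25. At 32 RPKM it was 31 in control replicate 1 against 12 to 15. The level of brlA, the regulator that starts conidiophore formation, was 90.2 RPKM in ΔadmA replicate 1 against 2.02 to 3.95 RPKM in the others of its strain, and 29.7 RPKM in ΔadmB replicate 1 against 0.476 to 1.36 RPKM. It was 34.6 RPKM in ΔadmAΔadmB replicate 3 against 1.17 to 10.4 RPKM, and 46.7 RPKM in control replicate 1 against 1.60 to 14.5 RPKM. Both measures stood apart in the same library of ΔadmA, of ΔadmB and of the control, and the part of one in the other was not tested.

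Among single members, AO090138000123 was at 35.0 RPKM in ΔadmAΔadmB replicate 1, close to its level in 4 ΔadmA libraries, against 0 to 1.31 RPKM in the other double deletion libraries. AO090001000045 was at 0.292 RPKM in control replicate 5 against 0 to 0.0563 RPKM in the other controls, a value still under the lowest ΔadmA library, at 1.27 RPKM.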

How the results depend on the processing

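The number of members was 117 with a highest value of at least 64 RPKM; with the other limits and scalings it was 128 to 284, and leaving out 1 library in turn gave 179 to 196. At 32 RPKM 100 members were on in 1 library only, and 3 runs of at least 2 members were found. ΔadmA against the control called 1 member with a pseudocount of 0.1, 1 with library set as a covariate, 0 in only the 10 libraries compared, 1 in set 1 and 5 in set 2. Over all genes these fits called 103, 113, 2, 3 and 36. The member called in set 1 was not one of the 2 called in the main fit. ΔadmB against the control called 1 in set 1 and 4 in set 2, where ΔadmB has 1 library that is assumed to vary like the other strains. ΔadmAΔadmB against the control called 1 in set 1, where 2 of all genes were called. ΔadmAΔadmB against ΔadmA called 2 without a filter, 2 with a mean of at least 1 RPKM, 3 with library set as a covariate, 0 in only the 10 libraries compared, 0 in set 1 and 3 in set 2. Over all genes these fits called 209, 188, 208, 1, 2 and 7. ΔadmAΔadmB against ΔadmB called 0 in set 1, where 0 of all genes were called, and no count is given for set 2 with its 1 ΔadmB library. Leaving out 1 library in turn gave 0 to 2 calls for ΔadmA against the control, 0 to 3 for ΔadmAΔadmB against ΔadmA, and 0 in the other 3 comparisons. Over all genes the calls then ranged from 23 to 304 in ΔadmA against the control and from 92 to 304 in ΔadmAΔadmB against ΔadmA. They ranged from 0 to 2 in the other 3 comparisons. The cause was not tested. AO090001000045 could not be tested without any 1 ΔadmA library, since it then failed the filter. No direction reversed.

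With the replicate number as a block, ΔadmAΔadmB against ΔadmA called 3 members, and AO090138000123 was no longer called in ΔadmA against the control (limma adjusted p = 0.0704). Over all genes the block gave 201 calls in ΔadmA against the control, against 115 without it, and 289 in ΔadmAΔadmB against ΔadmA, against 189. The labels do not say that a number marks a shared culture or day. Same-numbered libraries of 2 strains correlated, in their deviations from the strain means, at -0.22 to 0.52, with 19 of 30 pairs over 0.1, so not every pair met that limit. As a hint from the data, 11 of 20 libraries correlated best with one of their own number.

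Single-library values rest on 1 library with no replicate. Of 150 members on in fewer than 5 libraries 78 passed the filter, and of 68 on in 1 strain 20 did, so the others have no test. Precision is limited by the unknown depth.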
